A study of Mus musculus with 4 samples.

Results

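Aff3, Msi2, Rnf220, Maml3, 2610307P16Rik, Ctla2a and Fut8 are 7 of the 32285 genes counted in this series, and they lead its stem and multipotent progenitor cells. They were chosen by their counts per library and cell class in these data, so their high level in those cells against other cells is given below as a description, with no test. RNA and surface antibodies were counted together in single mouse bone marrow cells (CITE-seq, in which antibodies carry DNA tags that are sequenced with the cell's RNA). The cells were CD45.2+Kit+ and were taken 10 weeks after transplantation, so all 4 groups are blood cells of 1 CD45 type that had grown in a transplanted animal and that carry Kit, the stem cell factor receptor of progenitors and mast cells. One library was made for each of 4 groups: control (named wt), Mll3SI (named mll3KI), Mll4SI (named mll4KI) and the double Mll3/4SI (named dKI). MLL3 and MLL4, encoded by Kmt2c and Kmt2d, are histone methyltransferases that act at enhancers. The labels do not spell out SI or KI, and give no strain, sex, donor age, number of animals or pooling, and no meaning for the 2 hashtag antibodies in each library.

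Stem cells (HSC) sit at the top of blood formation, and multipotent progenitors (MPP) are their immediate descendants, which still give rise to several lineages. As cells commit to the granulocyte, monocyte, red cell or lymphoid lines they switch off part of the stem and progenitor programme. Aff3 belongs to the AFF family of scaffold proteins of the super elongation complex, which releases paused RNA polymerase II, and its human counterpart is a fusion partner of MLL in leukaemia. Msi2 is an RNA-binding protein of the Musashi family that controls translation and is known for supporting stem cell self-renewal. Maml3 is a Mastermind-like coactivator that joins the Notch and Rbpj complex on DNA. Rnf220 is a RING-type ubiquitin ligase that works with Zc4h2 and has been tied to beta-catenin stability. Fut8 is the enzyme that adds core fucose to N-glycans. Ctla2a is an inhibitor of cathepsin-type cysteine proteases that resembles their propeptide and is known from activated T cells. 2610307P16Rik is a long non-coding transcript.

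The libraries held 7524 to 11678 cell barcodes; the number kept was 6743, 8023, 10186 and 6755, in the order control, Mll3SI, Mll4SI and the double Mll3/4SI, which all sets of 4 values below follow. The median was 16964, 13603, 12800 and 19185 gene UMIs (unique molecular identifiers, each counting 1 captured RNA molecule) per kept cell, and pairs of libraries shared 16 to 29 barcodes. Clusters were named from marker genes, with the 7 genes and all markers left out of clustering. Clusters 6 and 7 were HSC/MPP-like and held 923, 920, 795 and 353 cells, 13.7%, 11.5%, 7.80% and 5.23% of each library. In control cells 15 of the 18 HSC/MPP markers were at least a log2 ratio of 1 above the other named cells. The class was not free of other programmes: its 15 granulocyte markers, none at 0, summed to 10120, 10168, 18304 and 9947 CPM (counts per 1000000 gene UMIs of the class), highest in Mll4SI, and its 8 lymphoid-primed markers to 358, 438, 239 and 405 CPM, lowest in Mll4SI, where Rag1 was at 0. Of the 27 clusters 5 stayed unnamed; among them cluster 17 held 688 Mll3/4SI cells (10.2%), 2 Mll4SI cells and none of the other libraries, and cluster 15 held 69, 33, 745 and 36 cells. The X-chromosome RNA Xist was at 0, 0.174, 2379 and 2076 CPM in HSC/MPP-like cells. Eif2s3y, a Y-chromosome gene, was at 74.3 and 68.9 CPM in the Hashtag1 and Hashtag2 cells of control. In those of Mll3SI it was at 77.9 and 66.2 CPM, and in both hashtags of Mll4SI and Mll3/4SI at 0. By these RNAs the cells were of male type in control and Mll3SI and of female type in Mll4SI and Mll3/4SI. Each ratio of Mll4SI or Mll3/4SI to control thus also sets female against male cells, and that difference cannot be told apart from the group. With 1 library per group no test between groups exists and no p-value is given; ranges set after a log2 ratio or a share are exact 95% intervals for counting error only.

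The genes lie on mouse build GRCm38 (GENCODE M21) at chr1:38177326-38664955 (Aff3), chr11:88339382-88718513 (Msi2), chr4:117271463-117497052 (Rnf220), chr3:51685907-52105076 (Maml3), chr13:28460034-28885620 (2610307P16Rik) and chr13:60934155-60936625 (Ctla2a) on the minus strand, and at chr12:77238125-77476338 (Fut8) on the plus strand. All but 2610307P16Rik are annotated as protein coding. Each of the 7 apart from Ctla2a spans more than 200 kb: 488 kb for Aff3, 379 kb for Msi2, 226 kb for Rnf220, 419 kb for Maml3, 426 kb for 2610307P16Rik and 238 kb for Fut8. Ctla2a spans 2.47 kb. The genes whose lead was ranked in control had a median length of 25029 bases, and 21.8% of those over 100 kb were at least a log2 ratio of 1 higher in control HSC/MPP-like cells than in other named cells, against 10.8% of all. Whether reads in introns were counted is not given in the sources used here, and the part of gene length in these levels was not tested. Rnf220, Aff3, Msi2, Maml3 and Fut8 overlap genes on the other strand, and since the use of strand in counting is not given either, reads of such pairs cannot be told apart.

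Ctla2a has a near copy, Ctla2b, at chr13:60895350-60897447, so the windows just upstream of both start sites are shown; reads of the pair may be split uncertainly between them. The sequences are the 250 bases before the start site from RefSeq (GRCm38.p6), 5′ to 3′ on the minus strand, at chr13:60936626-60936875 and chr13:60897448-60897697. Capitals mark a match to the GATA motif AGATAA read from the other strand (TTATCT) in Ctla2a and the bases aligned to it in Ctla2b.
Ctla2a: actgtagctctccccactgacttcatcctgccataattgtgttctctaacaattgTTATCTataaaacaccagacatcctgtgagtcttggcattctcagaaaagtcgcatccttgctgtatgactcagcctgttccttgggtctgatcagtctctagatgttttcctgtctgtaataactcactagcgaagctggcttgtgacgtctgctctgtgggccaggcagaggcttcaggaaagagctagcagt
Ctla2b: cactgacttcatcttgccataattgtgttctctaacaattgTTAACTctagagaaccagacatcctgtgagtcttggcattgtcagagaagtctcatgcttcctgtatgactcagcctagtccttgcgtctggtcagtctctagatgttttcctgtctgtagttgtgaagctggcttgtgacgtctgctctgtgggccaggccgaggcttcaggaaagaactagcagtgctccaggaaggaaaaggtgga

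The windows aligned over 228 base pairs, of which 208 were identical and 20 differed. One difference, T59A (counted from 1 at the 5′ end of the Ctla2a window), lies in the marked bases, so the Ctla2b window lacks the match. AGATAA was searched on both strands and occurs in 9.99% of the 32851 RefSeq windows of this length; among the 7 genes, the windows of Ctla2a and Fut8 hold it. The ETS motif GGAAGT, found in 19.7% of windows, occurs in that of Rnf220, and the RUNX motif TGTGGT (14% of windows) in none of the 7. These are matches of letters and not measured binding. The RefSeq start site used for Rnf220 lies 121591 bases from the 5′ end of the gene as placed above, and that of Aff3 37711 bases. Where RefSeq held several start sites (4 for Fut8, 3 for Msi2 and 2 for Ctla2a), only the nearest to that end was searched for these genes. In HSC/MPP-like cells Ctla2a was at 242, 201, 217 and 200.0 CPM and Ctla2b at 28.7, 28.2, 25.7 and 21.4 CPM. Both were low in granulocyte-monocyte-like cells, at 3.32, 3.66, 1.42 and 7.38 CPM and 1.86, 2.52, 0.717 and 1.79 CPM.

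Aff3, Msi2 and Maml3, which act on transcription and on mRNA, were high in HSC/MPP-like cells and low in granulocyte-monocyte-like cells of every library, but were not restricted to the stem and progenitor class. Aff3 was at 688, 735, 746 and 666 CPM in HSC/MPP-like cells and at 43.8, 45.0, 32.9 and 57.3 CPM in granulocyte-monocyte-like cells. B-lymphoid-like cells carried 936, 906, 846 and 1143 CPM of Aff3, above the HSC/MPP-like range in each of the 4 libraries, and erythroid-like cells 505, 448, 398 and 418 CPM, below it. Basophil/mast-like (297 to 542 CPM) and erythroid-like cells overlapped in their ranges and take no order. For Msi2 the HSC/MPP-like values were 458, 466, 375 and 364 CPM and the granulocyte-monocyte-like values 37.5, 45.0, 20.7 and 35.4 CPM. Msi2 in B-lymphoid-like (356 to 395 CPM) and basophil/mast-like cells (189.9 to 372 CPM) overlapped the HSC/MPP-like range, while erythroid-like cells (256 to 320.2 CPM) stayed below it. Maml3 was at 404, 399, 421 and 381 CPM in HSC/MPP-like, 406, 366, 455 and 395 CPM in B-lymphoid-like and 65.7, 66.6, 57.7 and 75.7 CPM in granulocyte-monocyte-like cells. Thus Maml3 did not differ between HSC/MPP-like and B-lymphoid-like cells beyond the spread of the libraries. The T/NK-like class held 12 to 47 cells per library, and its levels of these genes scattered widely (Maml3 8.16 to 239 CPM).

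Rnf220 was highest in HSC/MPP-like cells in every library, at 552, 513, 269 and 502 CPM. Erythroid-like cells had 196, 149.6, 94.6 and 176 CPM of Rnf220, basophil/mast-like cells 241, 213, 149 and 132 CPM and B-lymphoid-like cells 105, 98.6, 52.9 and 105 CPM. Within each class, the Mll4SI value was below that of control, and in HSC/MPP-like cells it lay below all 3 other libraries. 2610307P16Rik was at 273, 290.0, 328 and 303 CPM in HSC/MPP-like cells, with a higher range in B-lymphoid-like cells (462 to 569 CPM) and 6.03, 7.56, 5.19 and 16.1 CPM in granulocyte-monocyte-like cells. Its erythroid-like values spread from 64.7 CPM in control to 164 CPM in Mll4SI, and its basophil/mast-like values from 169 CPM in Mll3/4SI to 465 CPM in Mll4SI. Against all other named cells pooled, most of them granulocyte-monocyte-like, this non-coding transcript had the steepest drop of the 7. The drop came to 3.55, 3.37, 3.97 and 3.48 on the log2 scale and does not hold against B-lymphoid-like cells. Ctla2a, the protease inhibitor, was higher in erythroid-like (342, 405, 417 and 366 CPM) than in HSC/MPP-like cells in all 4 libraries, and higher still in the few T/NK-like cells (711, 531, 1077 and 727 CPM). B-lymphoid-like cells, high in 2610307P16Rik and Aff3, had only 15.5, 11.9, 6.04 and 8.06 CPM of Ctla2a. Fut8 was at 659, 786, 916 and 624 CPM in HSC/MPP-like cells, 1488, 1630.5, 1540.3 and 754 CPM in basophil/mast-like and 166, 175, 160.1 and 218 CPM in granulocyte-monocyte-like cells. Basophil/mast-like cells thus had more of this fucosyltransferase than HSC/MPP-like cells in every library, though by less in Mll3/4SI. The basophil/mast-like class held 171, 136, 112 and 166 cells. In a coarser clustering (Leiden resolution 0.5) it held 169, 132, 111 and 65 cells, and in a finer one (resolution 2) 170, 133, 121 and 68. The Mll3/4SI cells behind the basophil/mast-like levels of all 7 genes thus depended on the clustering. Levels of this class under the other clusterings are not given here. Fut8 led the other named cells by 1.58, 1.84, 2.27 and 1.39 on the log2 scale and ranked 270, 164, 141 and 492 of 9845 to 9894 genes, while 2610307P16Rik ranked 7, 9, 3 and 11.

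**Figure D1:**
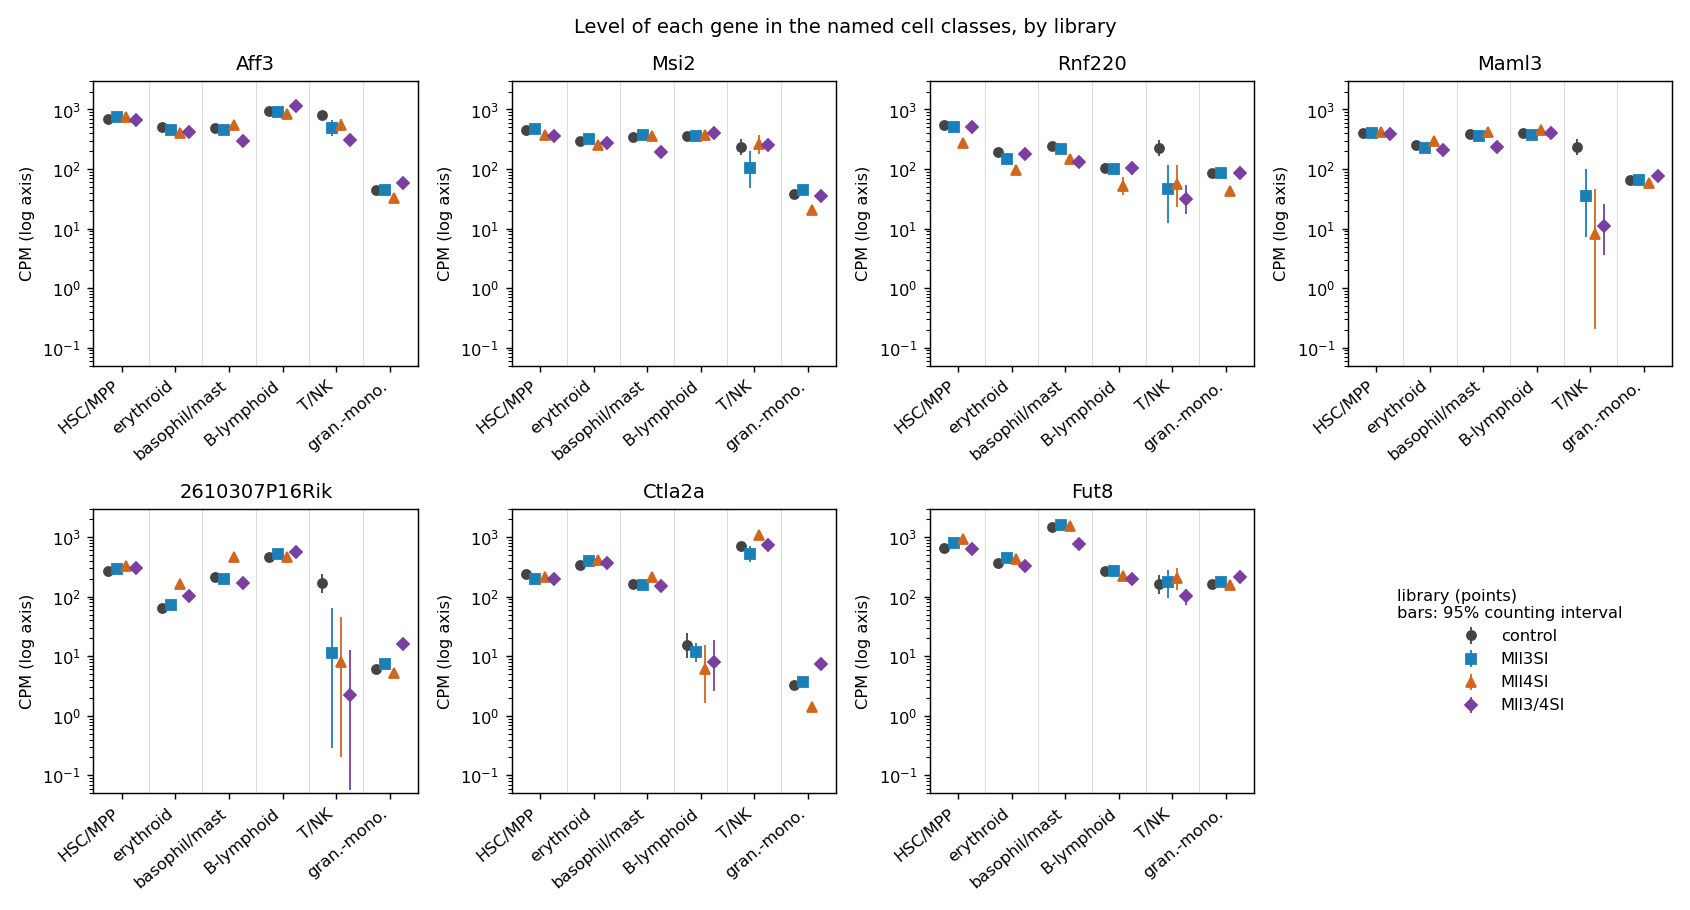
Level of each of the 7 genes in 6 named cell classes. The log axis gives CPM, points are the 4 libraries and bars the 95% counting interval. Apart from the few T/NK-like cells, all 7 genes sit lowest in granulocyte-monocyte-like cells of every library, except Fut8 in Mll3/4SI, which is lower in B-lymphoid-like cells; Aff3 peaks in B-lymphoid-like cells (846 to 1143 CPM), Fut8 in basophil/mast-like cells, and Ctla2a is near the bottom in B-lymphoid-like cells (6.04 to 15.5 CPM).

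Single HSC/MPP-like cells usually carried several of the 7 transcripts at once. After each cell was thinned to 3000 UMIs, at least 3 of the 7 were detected in 88.6%, 89.1%, 83.9% and 86.0% of HSC/MPP-like cells and in 71.8%, 74.1%, 75.9% and 74.6% of erythroid-like cells, but in 6.60%, 6.89%, 3.82% and 8.88% of granulocyte-monocyte-like cells. Thinning left out 2 to 4 HSC/MPP-like and 42 to 77 granulocyte-monocyte-like cells per library. Aff3 was detected in 79.0%, 82.1%, 78.4% and 78.9% of thinned HSC/MPP-like cells, and in 8.01%, 7.70%, 4.68% and 8.36% of granulocyte-monocyte-like cells. Without thinning those shares were 98.9%, 99.1%, 99.7% and 98.9% and 23.9%, 23.3%, 12.2% and 23.2%, at median depths of 22772, 17476, 21819 and 25392 and 16588, 13397, 12910 and 19016 UMIs per cell. Ctla2a was found in 46.5%, 43.0%, 39.3% and 41.4% of thinned HSC/MPP-like cells against 0.817%, 0.843%, 0.287% and 1.47% of granulocyte-monocyte-like cells, and 2610307P16Rik in 47.8%, 52.9%, 53.5% and 52.0% against 1.31%, 1.57%, 1.10% and 2.93%. Unthinned, the Ctla2a shares were 80.3%, 77.2%, 65.7% and 75.9% and 4.48%, 3.98%, 1.50% and 7.45%. For Fut8 the shares were 75.3%, 76.8%, 81.7% and 72.3% against 30.3%, 33.7%, 26.1% and 33.8%. Free RNA in the droplets also gives UMIs to cells that do not express a gene, and it was not measured separately. The granulocyte-monocyte-like shares are no pure background, since Aff3 in control was at 4.31 CPM in cluster 1 of that class and 128 CPM in cluster 4; the HSC/MPP-like shares lay above them for each of the 7 genes in every library. The Rnf220 share in HSC/MPP-like cells was 69.9%, 63.1%, 45.3% and 69.1%, with the lowest value in Mll4SI (41.8% to 48.8%) below the interval of control (66.8% to 72.8%).

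**Figure D2:**
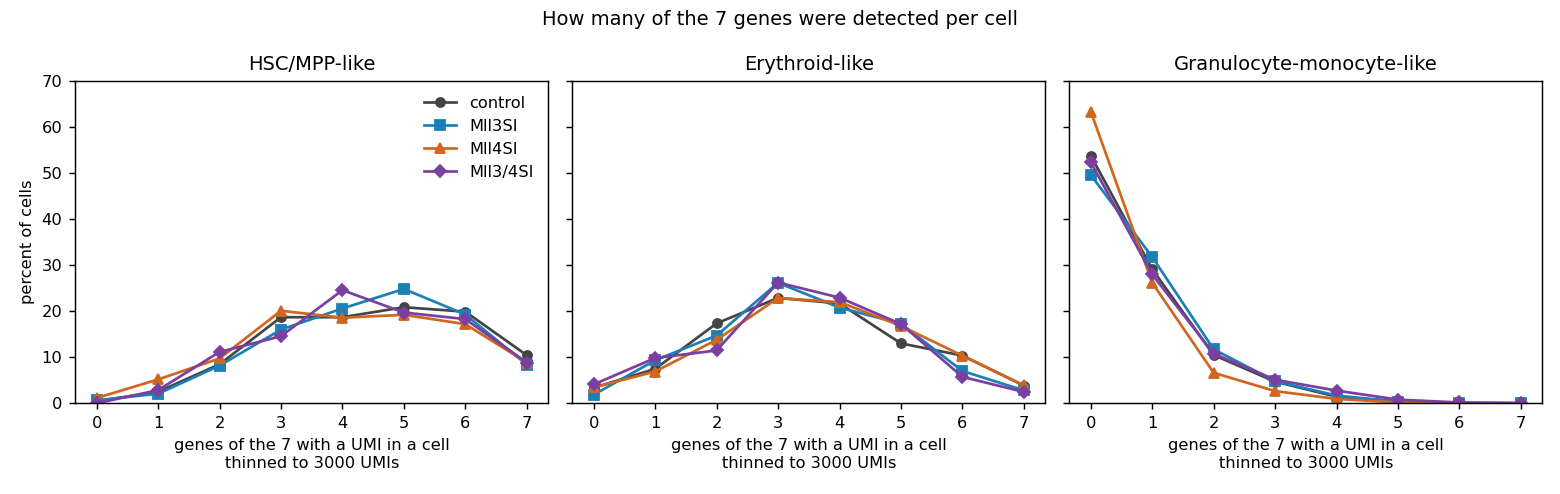
Percent of cells in which 0 to 7 of the genes had a UMI, after thinning each cell to 3000 UMIs, for 3 classes and 4 libraries. HSC/MPP-like and erythroid-like cells centre on 3 to 5 genes, while 49.6% to 63.4% of granulocyte-monocyte-like cells had none.

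Within the HSC/MPP-like class the 7 genes fell into different patterns. Mecom and Hlf encode transcription factors of stem cells, and Flt3 encodes the receptor of lymphoid-primed multipotent progenitors. Between cells with a UMI of Mecom or Hlf and cells with a Flt3 UMI but neither of those, Ctla2a differed by 2.12, 1.56, 2.63 and 1.65 on the log2 scale, Msi2 by 1.21, 0.89, 1.38 and 1.13 and Fut8 by 1.20, 1.39, 0.94 and 1.22, all higher on the Mecom or Hlf side. Maml3 (-0.32, -0.60, -0.07 and -0.46) and Rnf220 (-0.14, -0.50, -0.31 and -0.40) leaned to the Flt3 side in all 4 libraries. Aff3 (0.20, 0.07, 0.29 and -0.29) and 2610307P16Rik (0.08, -0.29, 0.57 and -0.11) changed sign between libraries. Over all genes the median of this ratio was 0.05 to 0.06, and the Flt3 subset held 66 to 122 cells per library. A finer clustering of all kept cells (Leiden resolution 2) gave 4 clusters named HSC/MPP-like, which were not limited to cells of clusters 6 and 7. They were 74 cells led by Mecom, with Hlf among the top genes, and 923 cells with Dntt and Flt3 among the top genes. The others were 834 cells with neither Dntt nor Flt3 there and 372 cells led by Pf4, which also had 6 megakaryocyte markers. In clusters 6 and 7 the 8 megakaryocyte markers, Pf4 among them, summed to 24.3, 20.8, 26.9 and 29.6 CPM. Pf4 was among the top 10 genes of the erythroid-like cluster 9 and not of clusters 6 or 7. How many cells of the Pf4 cluster belong to clusters 6 and 7 was not counted. Its levels are therefore not given as a pattern inside the HSC/MPP-like class. The cluster of 74 held 20, 39, 10 and 5 cells of the libraries, and the cluster levels are summed over libraries. In the order of these clusters Msi2 was at 1164, 703, 517 and 294 CPM and Ctla2a at 659.8, 440.3, 295 and 527 CPM. Rnf220 was at 156, 706, 543 and 85.9 CPM, so it was low in both the Mecom and Hlf cluster and the Pf4 cluster, where Ctla2a was high. Aff3 was at 659, 1078, 891 and 256 CPM and 2610307P16Rik at 230.0, 579, 374 and 43.7 CPM, lowest in the Pf4 cluster. The 2610307P16Rik level in the cluster of 74 differed between libraries, with 50.2 CPM for control cells and 154 CPM for Mll3SI cells. These clusters were made from RNA of the same cells, so their levels are a description.

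Surface antibodies had no part in choosing the genes, but the RNA levels compared between antibody groups did. Counts of the 7 genes beside all genes are therefore a description and not a test. Most differences had the same direction in all 4 libraries. Within each library the 307, 306, 265 and 117 HSC/MPP-like cells with the most of an antibody were compared with as many cells with the least, by log2 ratio of CPM + 1, and a gene was called at a ratio of at least 0.5 in size. Sca-1 marks stem and multipotent cells. In Sca-1-high cells Ctla2a was higher by 2.39, 2.17, 1.89 and 2.67, 2610307P16Rik by 2.03, 1.60, 1.21 and 2.09 and Msi2 by 1.75, 1.61, 1.18 and 1.82 on the log2 scale. In control cells this was a Ctla2a level of 536 CPM against 101 CPM. Fut8 differed by -0.24, 0.18, 0.21 and 0.18. Of the 7 genes 6, 6, 5 and 6 were called higher, where 16.7%, 15.9%, 8.72% and 17.2% of all genes tested were. The Sca-1-high cells had 17745, 12752, 18215 and 18952 UMIs at the median and the Sca-1-low cells 27498, 22809.5, 26182 and 33337, and 241, 240, 181 and 93 of the Sca-1-high against 131, 121, 108 and 48 of the Sca-1-low cells were of cluster 6. Within cluster 6 alone the Ctla2a difference was 1.81 to 2.13, that of Msi2 1.04 to 1.93 and that of 2610307P16Rik 0.82 to 1.37, whereas Maml3 came to 0.01 to 0.40. There 5, 3, 3 and 4 of the 7 were called higher with Sca-1, Aff3 being at 0.70, 0.43, 0.42 and 0.49 and Rnf220 at 0.66, 0.44, 0.45 and 0.51. The share of all genes called was not computed within cluster 6, so these counts have no background. Depth differed there too, with medians of 14776.5, 10593, 14467.5 and 16034 UMIs in Sca-1-high and 20852, 16484, 18009 and 21344 in Sca-1-low cells.

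CD150 is carried by long-term stem cells and CD48 by most of their progeny. CD150-high cells had more Ctla2a (0.94, 1.06, 1.77 and 1.31) and Msi2 (0.45, 0.53, 0.98 and 0.56), while Rnf220 (-0.08, -0.11, 0.10 and -0.05) and Maml3 (0.18, 0.01, 0.06 and 0.03) stayed near 0. Per library, 1, 2, 3 and 2 of the 7 genes were called higher, beside 4.46%, 7.03%, 6.33% and 6.63% of all genes. CD48-high cells had less Ctla2a (-1.47, -2.15, -1.11 and -1.33) and less Msi2 (-0.99, -1.33, -0.87 and -1.0), and 2, 4, 2 and 2 of the 7 genes were called lower beside 10.6%, 15.3%, 9.64% and 12% of all genes. Rnf220 (0.11, 0.16, 0.30 and 0.21) and Maml3 (0.17, 0.09, 0.25 and 0.28) were not called with CD48 in any library. CD48-high cells were the deeper ones, with 28111, 22868, 25461 and 32213 UMIs at the median against 17563, 12135, 18644 and 20012. In cluster 6 alone the CD48 difference was -1.97 to -1.27 for Ctla2a and -1.44 to -1.29 for Msi2.

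CD135, the FLT3 receptor protein, and CD34 moved with another set of the genes. Rnf220 was higher in CD135-high cells by 1.26, 1.36, 1.06 and 1.14, 2610307P16Rik by 1.50, 1.19, 0.82 and 1.08, Maml3 by 0.89, 0.90, 0.58 and 0.78 and Aff3 by 0.79, 0.59, 0.51 and 0.73. In control cells Rnf220 was at 829 CPM in CD135-high and 346 CPM in CD135-low cells. Fut8 went the other way, by -1.10, -1.14, -0.55 and -1.54, and Msi2 was not called in any library (0.27, 0.03, 0.10 and -0.09). So 4, 4, 4 and 4 of the 7 genes were called higher with CD135 and 1, 1, 1 and 2 lower, beside 6.25%, 5.15%, 3.83% and 7.54% of all genes higher and 5.3%, 6.86%, 4.42% and 10.3% lower. The CD34 pattern was alike: Rnf220 0.92, 1.03, 1.03 and 0.95, 2610307P16Rik 0.98, 0.91, 0.77 and 0.66, Maml3 0.64, 0.75, 0.73 and 0.40 and Fut8 -0.64, -0.79, -0.56 and -0.90. With CD34, 3, 3, 4 and 2 of the 7 were called higher and 1, 2, 1 and 2 lower, beside 3.55%, 3.89%, 4.41% and 5.52% and 4.39%, 7.5%, 6.06% and 8.16% of all genes. Within cluster 6 alone the CD135 difference was 1.02 to 1.50 for Rnf220 and -1.88 to -0.70 for Fut8.

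CD16/32 are Fc receptors of granulocyte-monocyte progenitors, and CD41 is an integrin of the megakaryocyte line and of some stem cells. All of the 7 genes but Fut8 were called lower in CD16/32-high cells of every library, beside 16.5%, 13.3%, 11.9% and 15.5% of all genes. Ctla2a differed by -2.61, -1.96, -2.82 and -2.62 and 2610307P16Rik by -2.52, -1.87, -1.89 and -2.09 on the log2 scale, while Fut8 differed by 0.40, 0.32, -0.03 and 0.59. CD16/32-high cells were the deeper ones (30063, 23812, 28722 and 33928 against 18300, 13956, 17537 and 19984 UMIs), and 112, 116, 94 and 44 of them were of cluster 6 against 222, 230, 168 and 83 of the CD16/32-low cells. With CD41 the order turned: Fut8 was higher in CD41-high cells by 1.13, 1.25, 0.92 and 1.11, the single gene of the 7 called higher in each library, and Rnf220 differed by -1.24, -1.38, -1.07 and -1.01. All genes called higher with CD41 made up 4.67%, 5.97%, 3.6% and 6.67%, and those called lower 5.11%, 4.41%, 6.17% and 7.2%, where 4, 3, 2 and 3 of the 7 were lower. CD41-high and CD41-low cells had like depths (22790, 17180.5, 20589 and 26373 and 21898, 17030, 21565 and 24374 UMIs), and in cluster 6 alone the difference was 0.84 to 1.35 for Fut8 and -1.78 to -0.97 for Rnf220. With CD127, the IL-7 receptor, 1, 2, 0 and 4 of the 7 were called higher, beside 2.63%, 2.79%, 1.23% and 6.13% of all genes; 2610307P16Rik was at 0.56, 0.80, 0.01 and 0.96. In cluster 6 alone, where no share of all genes was computed, 0, 2, 0 and 0 were called higher with CD127. There 2610307P16Rik was at 0.49, 0.61, -0.15 and 0.25, so the calls in Mll3/4SI and that in control ended. The 3 others in Mll3/4SI were at 0.22 (Aff3), 0.10 (Rnf220) and 0.36 (Maml3). The part of cluster makeup in these differences was measured only through the cluster 6 values and was not tested otherwise. Depth still differed there, as given for Sca-1, and its part was not tested.

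**Figure D3:**
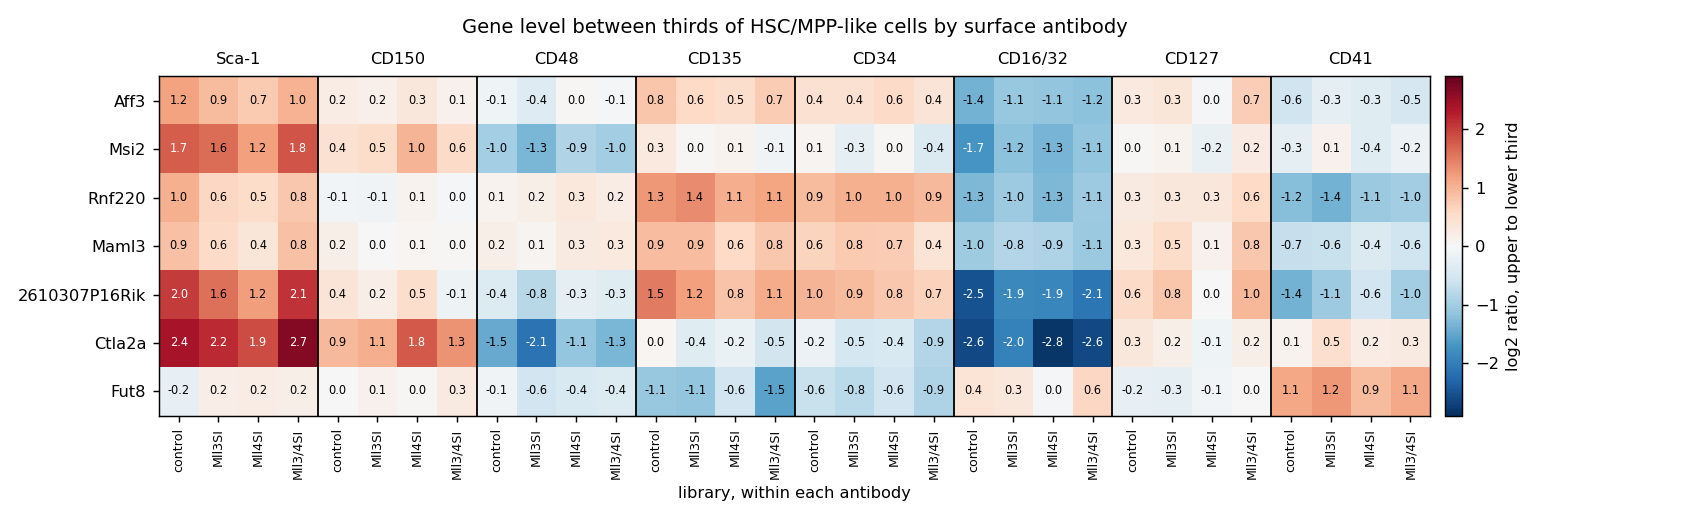
Log2 ratio of CPM + 1 between HSC/MPP-like cells with the most and the least of 8 surface antibodies (1 of 3 cells each), for 7 genes (rows) and 4 libraries within each antibody (columns). Ctla2a and Msi2 are red for Sca-1 and blue for CD48, Rnf220 and Maml3 are red for CD135 and CD34, and Fut8 is blue for CD135 (-1.54 to -0.55) and red for CD41 (0.92 to 1.25).

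Between libraries, the 7 genes mostly kept their level in HSC/MPP-like cells, with Rnf220 in Mll4SI as the exception. All 7 passed the level filter (a mean of at least 5 CPM over the libraries). Mll3SI against control had none of the 7 past a log2 ratio of 0.5 in either direction, beside 1.69% of the 10017 genes tested, and Mll3/4SI had none, beside 4.11%. Mll4SI had 1, Rnf220, which was lower; 2.88% of all genes were lower and 5.62% past the fold in either direction. Rnf220 was at 269 CPM in Mll4SI against 552 CPM in control, a log2 ratio of -1.03 (-1.09 to -0.99), and the other 2 libraries stayed near control. The Rnf220 ratio was -0.10 (-0.14 to -0.06) for Mll3SI and -0.14 (-0.19 to -0.09) for the double Mll3/4SI. The summed granulocyte markers of the class moved with it, being highest in Mll4SI as given above, and Flt3 was lowest there (115, 118, 64.5 and 116 CPM); their part in the Rnf220 value was not tested. In cells with a Flt3 UMI and no Mecom or Hlf UMI, Rnf220 was at 637, 715, 365 and 667 CPM, and in cells with a Mecom or Hlf UMI at 578, 507, 294 and 506 CPM, lowest in Mll4SI in both. Gm12828, an antisense gene inside Rnf220, was at 9.55, 8.01, 3.74 and 7.40 CPM and cannot be told apart from Rnf220 reads. Of the genes within 1 Mb of Rnf220, 31 were tested, and 3 passed the fold in Mll4SI: Gm12828 (-1.15), Tesk2 (0.60) and Tie1 (0.56), named after their values were seen. Eri3, the nearest of the tested genes outside it, was at 0.18.

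The other 6 genes moved less. Fut8 was at 659, 786, 916 and 624 CPM, and its log2 ratio to control was 0.25 (0.22 to 0.29) for Mll3SI, 0.47 (0.44 to 0.51) for Mll4SI, and -0.08 (-0.12 to -0.04) for Mll3/4SI. The Mll4SI value of Fut8 lay just under the fold and passed it in 6 of the 15 alternative settings tried. For Msi2 the ratio was -0.29 (-0.33 to -0.24) for Mll4SI and -0.33 (-0.39 to -0.28) for Mll3/4SI, and 0.03 (-0.02 to 0.07) for Mll3SI. The 3 Ctla2a ratios were -0.27 (-0.33 to -0.20), -0.16 (-0.22 to -0.10) and -0.27 (-0.35 to -0.20), and those of 2610307P16Rik 0.09 (0.03 to 0.14), 0.27 (0.22 to 0.32) and 0.15 (0.09 to 0.22); the comparisons share the control library. Apart from Msi2 in Mll3SI these intervals leave out 0, but they hold counting error alone, and none of these ratios reached the fold. For Aff3 the ratios were 0.09, 0.12 and -0.05, and for Maml3 -0.02, 0.06 and -0.08. The median of the 7 ratios was 0.03, 0.06 and -0.08 over the same order of libraries, beside 0.02, -0.01 and -0.05 over all genes. Genes over 100 kb had medians of 0.03, 0.07 and -0.07 in the same comparisons.

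**Figure D4:**
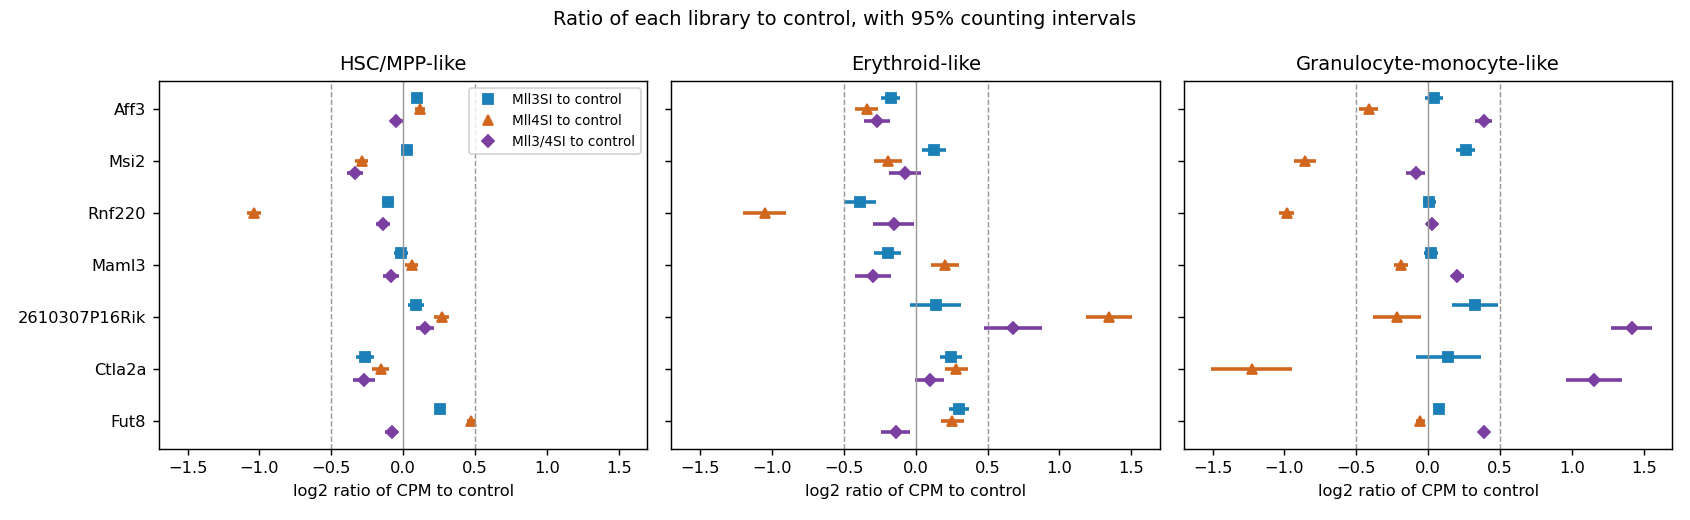
Log2 ratio of CPM of each library to control for the 7 genes in 3 cell classes; points are ratios, bars their 95% counting intervals, and dashed lines mark 0.5 either way. In HSC/MPP-like cells the Rnf220 point of Mll4SI stands alone beyond the dashed lines; in granulocyte-monocyte-like cells the ratio of Ctla2a rests on 1.42 to 7.38 CPM.

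Each library holds cells of 2 hashtags, and the labels do not say what they marked, so the hashtags show how far a value moves inside 1 library and are not replicates. Among HSC/MPP-like cells, Rnf220 differed between them in Mll3SI by more than any other of the 7 genes in any library. In HSC/MPP-like cells with Hashtag1 and Hashtag2 it was at 463 and 638 CPM in control, 663 and 350.0 CPM in Mll3SI, 255 and 281 CPM in Mll4SI, and 517 and 464 CPM in Mll3/4SI. Both Mll4SI values lie below the 6 others, but the lowest of those, Hashtag2 of Mll3SI, is nearer to Mll4SI than to Hashtag1 of its own library. The log2 ratio of Hashtag1 to Hashtag2 was 0.92 in Mll3SI and -0.46 in control. In Mll3SI it was the single gene of the 7 past the fold, beside 3.05% of all genes; in the other 3 libraries none of the 7 was, beside 1.80%, 1.99% and 6.81% in control, Mll4SI and Mll3/4SI. The split of Rnf220 in Mll3SI recurred in other cells: 0.80 in cluster 6, 1.08 in cluster 7, 0.81 in erythroid-like, 0.48 in granulocyte-monocyte-like and 0.32 in basophil/mast-like cells. Gm12828 inside Rnf220 split alike (1.08), and Eri3 next to it did not (-0.05). Hashtag1 and Hashtag2 cells of Mll3SI were alike in depth (17222 and 17292 UMIs) and in their share of cluster 6 (57.0% and 61.4%), and Flt3 was at 140.2 and 91.3 CPM. In control the Rnf220 split had the other sign: -0.50 in cluster 6, -0.47 in cluster 7, -0.51 in erythroid-like, -0.12 in granulocyte-monocyte-like and -0.22 in basophil/mast-like cells. Outside HSC/MPP-like cells Rnf220 in Mll3SI was not the widest split. There 2610307P16Rik in Mll3/4SI came to -0.85 in granulocyte-monocyte-like and 0.99 in basophil/mast-like cells. Among HSC/MPP-like cells 2610307P16Rik was the next most split gene, at 231 and 318 CPM in control and 329 and 246 CPM in Mll3SI, in opposite directions. Msi2 over the whole class was at 460.1 and 463 CPM in control, 468 and 469 CPM in Mll3SI, 379 and 359 CPM in Mll4SI, and 368 and 350.4 CPM in Mll3/4SI. Over the whole class its level in both hashtags of Mll4SI and Mll3/4SI was thus below those of control and Mll3SI. The share of all genes that part in such ways was not computed, so the hashtag orders of Msi2, Rnf220 and Fut8 have no background. Mll4SI and Mll3/4SI are also the libraries of female type. Inside the class the Mll4SI hashtags of Msi2 parted in opposite directions, with 439 and 549 CPM in cluster 6 (-0.32) and 334 and 239.9 CPM in cluster 7 (0.48). The Msi2 ratio of Mll4SI to control also rests on how the class was cut: at Leiden resolution 0.5 it was 0.03. Fut8 in Mll4SI (897 and 948 CPM) was above both hashtags of control (645 and 666 CPM), and Hashtag2 of Mll3SI came close to it (883 CPM). Ctla2a in control was itself split, 276 against 218 CPM, as widely as any library differed from control.

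**Figure D5:**
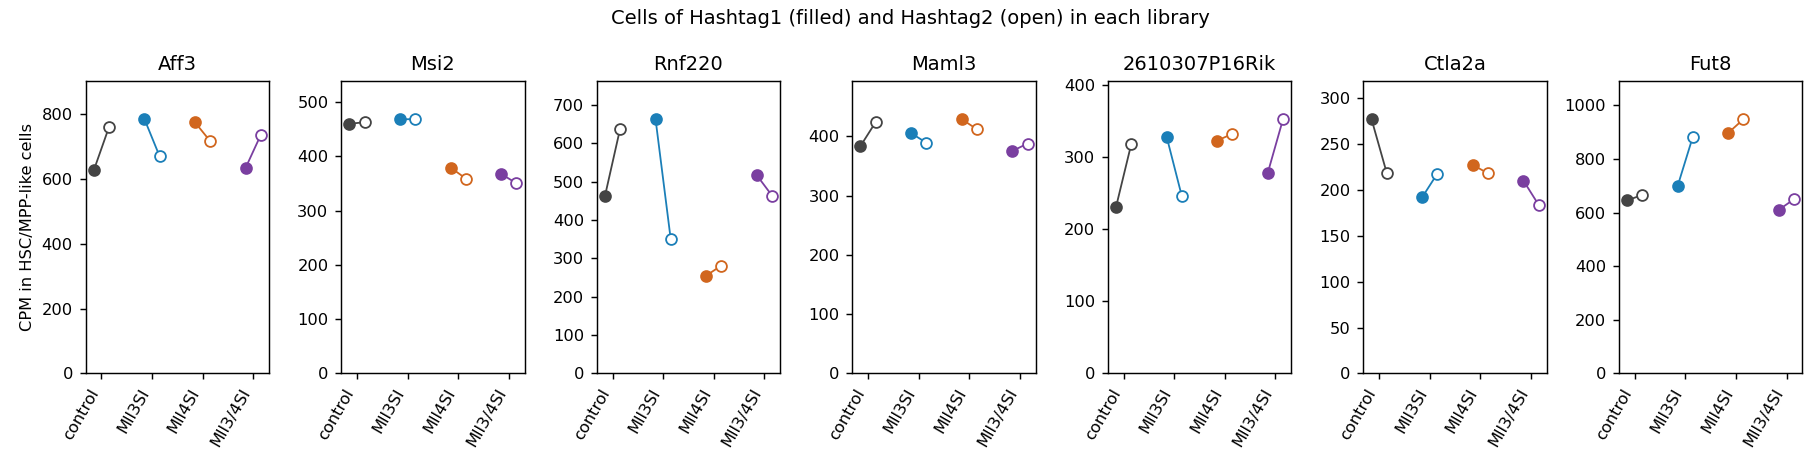
CPM of each gene in HSC/MPP-like cells of Hashtag1 (filled) and Hashtag2 (open), joined within each of the 4 libraries; axes start at 0. Rnf220 runs from 663 to 350.0 CPM inside Mll3SI and is lowest in both hashtags of Mll4SI, while the Msi2 pairs over the whole class are nearly level.

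Unnamed cluster 17 held cells of Mll3/4SI almost alone and carried all 7 transcripts, each above its granulocyte-monocyte-like level in that library. Its leading genes included the stem cell genes Angpt1 and Meis1, the mast cell and basophil genes Cpa3 and Fcer1a, and Pf4, a megakaryocyte gene. In cluster 17, 9 HSC/MPP markers were past a log2 ratio of 1. Its 8 megakaryocyte markers summed to 613 CPM in Mll3/4SI cells, against 29.6 CPM in HSC/MPP-like cells of that library. Against the HSC/MPP-like cells of the same library, Ctla2a was at 402 and 200.0 CPM (log2 ratio 1.0, 0.93 to 1.08) and 2610307P16Rik at 532 and 303 CPM (0.81, 0.75 to 0.87). Rnf220 was lower in the cluster, at 283 and 502 CPM (-0.82, -0.88 to -0.77), and Msi2 was at 269 and 364 CPM (-0.43). Aff3 (0.04), Maml3 (0.13) and Fut8 (-0.29) stayed within the fold. So 2 of the 7 were called higher and 1 lower, beside 9.47% and 8.83% of all genes. A cluster of 1 library may be that library rather than a cell type. Counted into the HSC/MPP-like class it would put 3 of the 7 past the fold in Mll3/4SI, with Rnf220 at -0.58, Msi2 at -0.58 and 2610307P16Rik at 0.70. The share of all genes past the fold with cluster 17 counted in is not given here, so that count has no background.

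In erythroid-like cells 2610307P16Rik was at 64.7, 71.2, 164 and 104 CPM, high in Mll4SI and Mll3/4SI. The log2 ratio to control was 1.33 (1.19 to 1.50) in Mll4SI, where 5.56% of genes were higher, and 0.67 (0.48 to 0.88) in Mll3/4SI, where 3.76% were. Rnf220 was lower in erythroid-like cells of Mll4SI as well, at 196, 149.6, 94.6 and 176 CPM with a ratio of -1.04 (-1.20 to -0.90); 3.7% of genes were lower. None of the 7 passed the fold in Mll3SI (beside 4.68% of genes), and no other of the 7 did in Mll4SI or Mll3/4SI. The erythroid-like class is cluster 9 alone, which has 9 HSC/MPP markers beside its 11 erythroid ones.

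Granulocyte-monocyte-like cells had 6 of the 7 genes above the level filter (a mean of 5 CPM), Ctla2a being below it. In Mll4SI, Msi2 was at 20.7 against 37.5 CPM and Rnf220 at 42.8 against 84.6 CPM in control. Both were called lower (log2 ratios -0.83 and -0.97), beside 5.11% of all genes. In Mll3/4SI, 2610307P16Rik was at 16.1 against 6.03 CPM (1.28), the 1 of the 6 called, beside 3.1% of all genes higher; in Mll3SI none of the 6 was, beside 2.02%. The libraries fill this class with different clusters: clusters 1, 2 and 16 gave 73.2% of the Mll4SI cells, and clusters 10, 12 and 20 gave 49.5% of the Mll3/4SI cells. Without those 6 clusters 2610307P16Rik in Mll3/4SI was at 5.81 against 5.96 CPM. Rnf220 in Mll4SI was at 88.3 against 87.1 CPM and Msi2 at 51.5 against 38.6 CPM. None of these 3 calls remained, but other ratios of Mll4SI to control then passed the fold upward. They were Maml3 (1.07), Aff3 (0.87), 2610307P16Rik (0.84) and Fut8 (0.75). The share of all genes was not computed for this sum, and the mix of clusters in the cells that remained still differed between libraries. Cluster by cluster, Rnf220 and Msi2 were mostly lower in Mll4SI than in control. Msi2 was lower in each of the 6 clusters with at least 100 cells of every library (1, 4, 5, 8, 13 and 14), by log2 ratios of -0.72 to -0.28. In clusters 1 and 13 the Msi2 counting interval holds 0. Over the 6 together Msi2 came to -0.93 and Rnf220 to -1.18, below the value of any single cluster. These sums also carry the mix of clusters. Cluster 1, low in both genes and mostly of Mll4SI, gave 2353 of the 4242 Mll4SI cells and 263 of the 1967 control cells. Rnf220 was at 122 and 72.1 CPM in control and Mll4SI in cluster 4, 244 and 135 CPM in cluster 5, 237 and 120.1 CPM in cluster 8 and 84.2 and 43.2 CPM in cluster 14. Clusters 5 and 8 were named from monocyte markers and clusters 4 and 14 from granulocyte markers. In cluster 13 Rnf220 was at 20.7 and 15.5 CPM, and in cluster 1, where it was low in every library, at 14.9 and 17.5 CPM.

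Genes related to the 7 by family or pathway mostly stayed within the fold in HSC/MPP-like cells. Of the other genes of the super elongation complex, 11 passed the level filter, and Aff2, a paralog of Aff3 on the X chromosome, was the 1 past the fold in each comparison. Aff2 was at 4.20, 12.1, 36.1 and 16.3 CPM in HSC/MPP-like cells, or 1.34, 2.84 and 1.73 on the log2 scale against control, and at 201, 200.0, 370.3 and 205 CPM in granulocyte-monocyte-like cells. The granulocyte markers of the class are given above, and their part in the Aff2 values was not tested. Aff1 (167, 183, 209.6 and 168 CPM) and Aff4 (65.2, 68.5, 72.7 and 58.9 CPM) did not pass the fold. Msi1, the paralog of Msi2, had no UMI in HSC/MPP-like cells of any library, which allows at most 0.137, 0.174, 0.163 and 0.313 CPM (the CPM of 3 UMIs). None of the other 5 genes on the list of Musashi and related RNA-binding regulators passed the fold. Of the Notch pathway genes beside Maml3, 15 passed the filter and none passed the fold; Maml1 was at 15.5, 15.9, 18.3 and 16.7 CPM and Maml2 at 94.7, 97.3, 98.7 and 90.2 CPM. Maml2 was low in granulocyte-monocyte-like cells (10.6, 9.30, 9.69 and 12.2 CPM), as Maml3 was, and Maml1 was higher there (32.9, 28.2, 37.4 and 29.4 CPM).

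Among the other fucosylation genes, 9 passed the filter and 1 the fold: Fut7, which makes selectin ligands, was at 18.2, 15.3, 12.5 and 18.6 CPM, with a log2 ratio of -0.51 in Mll4SI. Fut10 was at 8.50, 9.29, 8.63 and 6.78 CPM and Fut11 at 16.8, 17.7, 17.1 and 12.7 CPM, within the fold, and Fut4 (4.25, 3.48, 4.50 and 3.54 CPM) was below the filter. None of the 8 N-glycan branching genes passed the fold. Of the 9 cathepsin and inhibitor genes beside Ctla2a, Ctsh, a cathepsin, was at 11.3, 15.3, 16.3 and 17 CPM and passed the fold in Mll3/4SI (0.55) and lay just under it in Mll4SI (0.497). Ctla2b did not pass it (-0.03, -0.15 and -0.41). None of the 4 genes listed with Rnf220 passed the fold in any comparison, Zc4h2 being at 4.52, 6.10, 5.48 and 3.96 CPM. The medians of these lists without the 7 genes lay between -0.13 and 0.14, beside 0.02, -0.01 and -0.05 over all genes.

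Across 69 sums of cells (each cluster in each library with at least 50 cells), the log2 levels of the 7 genes were correlated with those of 9757 genes; the sums share libraries, depth and clusters, so Pearson's r is a description. Sox4, a transcription factor of progenitors, was the gene most like Msi2 (0.978) and Maml3 (0.983) and was next to Msi2 for Aff3 (0.970). For Rnf220 the most like were Tspan3 (0.958), Dcun1d1 (0.958) and Atp2b4 (0.955), and for 2610307P16Rik H2-Ob (0.953), Ahdc1 (0.951) and Cers4 (0.943). For Ctla2a they were Myct1 (0.978), Tfr2 (0.968) and Prkg1 (0.965), and for Fut8 Nr6a1os (0.924), Cep97 (0.919) and Paqr8 (0.918). Among the 7, the pairs ran from 0.727 (Rnf220 and Ctla2a) to 0.971 (Aff3 and Msi2).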

How the data were processed

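Gene and antibody UMIs of 4 single-cell libraries were analysed. The deposited values are UMI counts per feature and cell barcode for 32285 genes and 15 antibodies (13 surface, 2 hashtags). Cell Ranger, version 7.1.0 per the file headers, made them, and the submitters' processing notes name mm10. The annotation, cell calling, strand and intron settings are not given in the sources used here.

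Cells with at least 500 genes, 1000 gene UMIs and at most 10% mitochondrial UMIs were kept, and Scrublet scores removed the top 0.8% per 1000 cells as doublets (409, 594, 1001 and 411 cells). Hashtags were assigned at UMI thresholds placed between the modes after the counts were seen. Libraries were clustered together (2000 variable genes, 30 components, 15 neighbours, Leiden resolution 1). A cluster was named with at least 3 markers at a log2 fold of 1, a lead of 2 over the next class, and no other class with as many markers among its top 10 genes; the last part was set after clusters were seen. Granulocyte and monocyte names were joined. The study's own cell names were not used here.

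Counts were summed per class and library and given as CPM. Ratios are log2 of CPM + 1, which understates low genes, and their conditional binomial intervals omit the added 1. Genes with a mean of at least 5 CPM were tested, and past the fold means 0.5 in size. Intervals are exact Poisson (CPM) and Clopper-Pearson (shares), at 95%. Antibodies were centred log ratios over the 13 surface antibodies. Gene IDs were matched to GENCODE M21 (32235 of 32285), and all 7 genes to RefSeq promoter windows. The ratio script was tested on simulated counts. The named genes were the 7, their closest relatives, list members past the fold and the 3 most like genes of each. The 7 genes, lists and alternatives were chosen with earlier results of these data known. Python 3.11.15 was used with scanpy 1.11.5, leidenalg 0.10.2, numpy 2.4.6 and scipy 1.17.1. Alternatives are in the closing section.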

Additional observations from a re-analysis of the deposited data

How the results depend on the processing

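No paired analysis was possible because each group is 1 library with no replicate number. Each log2 ratio to control in HSC/MPP-like cells was recomputed under 15 alternatives, of which cluster 6 alone, cluster 7 alone and cluster 17 counted in, and the counts by hashtag, were chosen after seeing the data. The count of the 7 genes past the fold in Mll3SI was 0 under 13 of them, 3 with Hashtag1 cells alone (Rnf220, 2610307P16Rik and Ctla2a) and 1 with Hashtag2 cells alone (Rnf220). In Mll4SI it was 2 with doublets kept, at Leiden resolution 0.5 and 2, with the mean of per-cell CPM, with cells holding a Mecom or Hlf UMI, with Hashtag2 cells and with cluster 6 alone, and 1 otherwise. In Mll3/4SI it was 3 with cluster 17 counted in and 0 otherwise. Rnf220 in Mll4SI was past the fold under all 15, from -1.18 to -0.82; in Mll3SI it ran from -0.86 with Hashtag2 to 0.52 with Hashtag1. Msi2 in Mll4SI ran from -0.37 with Hashtag2 to 0.03 at Leiden resolution 0.5. Fut8 in Mll4SI ran from 0.37 to 0.75, and Ctla2a in Mll4SI from -0.28 to 0.28 (Leiden resolution 0.5). The share of all genes past the fold, 1.69%, 5.62% and 4.11% in the 3 comparisons, came to 0.529%, 2.63% and 1.54% with a pseudocount of 10 CPM and to 7.94%, 12.8% and 15.4% at Leiden resolution 0.5. For the other alternatives the share of all genes is not given here, so their counts of the 7 have no background. All 196 recomputed leads over the other named cells stayed above 0, from 1.22 to 5.81. The 7 genes were chosen for this lead in the same libraries, so these values are a description and give no support.

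In granulocyte-monocyte-like cells the direction turned in the sum without the clusters mostly of 1 library, which changes the cells compared: Msi2 in Mll4SI came to 0.41, Rnf220 in Mll4SI to 0.0206 and 2610307P16Rik in Mll3/4SI to -0.0307. In that sum Maml3, Aff3, 2610307P16Rik and Fut8 in Mll4SI passed the fold upward, as given above. Within the 6 clusters with at least 100 cells of every library, Msi2 in Mll4SI stayed below 0 (-0.72 to -0.28), and Rnf220 in Mll4SI was 0.22 in cluster 1 and -0.97 to -0.40 in the 5 others. Over the 6 together they were -0.93 and -1.18, sums that also carry the different mix of clusters in each library. 2610307P16Rik in Mll3/4SI was -0.18 in cluster 1, -0.50 in cluster 14, 0.46 in cluster 4, 0.28 in cluster 13, 0.09 in cluster 8, 0.02 in cluster 5 and -0.0586 over the 6 together. The T/NK-like and B-lymphoid-like levels rest on 12 to 189 cells per library.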

Other observations

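2610307P16Rik lies 63.3 kb from Sox4, and 3 genes within 1 Mb of it were tested in HSC/MPP-like cells. Sox4 was at 198, 188, 187 and 193 CPM there, and none of the 3 passed the fold in any comparison. In Mll3SI the Hashtag1 to Hashtag2 log2 ratio was 0.42 for 2610307P16Rik and -0.10 for Sox4. Around Fut8, 11 genes were tested and none passed the fold; around Aff3 16 were tested with none past it, and around Msi2 21, with 2 past it in Mll4SI. Around Maml3 10 were tested, with 1 past the fold in Mll4SI and in Mll3/4SI: Mgst2, 3.23 kb away, named after its values were seen, was at 29.7, 29.4, 13.5 and 14.4 CPM, with log2 ratios of -1.09 and -1.0.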
